A study of Mus musculus with 24 samples.

Results

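The 10 genes followed here encode transcription factors of the naive pluripotency network, Nanog, Esrrb, Klf2, Klf5, Tfcp2l1, Tbx3, Nr5a2, Zfp42, Prdm14 and Sall4. They were chosen by name from the 37315 genes of the normalized count table, by matching symbols to its Ensembl identifiers through GENCODE vM21, and all 10 were found. Their levels were read in all 12 populations of a study of interferon γ (IFNγ) and X-chromosome reactivation, with 2 libraries per population and 24 in all. The cells came from PaX, a female mouse ESC line of hybrid origin (129S1/SvImJ, CAST/EiJ). Its M. musculus X chromosome carries a truncated Tsix and a GFP reporter in Hprt (X-GFP), a Nanog promoter drives an RFP reporter (P-RFP), and a doxycycline-inducible cassette carries Myc, Klf4, Pou5f1 and Sox2, none of which is among the 10. Every group shared these alleles. The groups were ESCs kept in serum and LIF, neural precursor cells (NPCs) made from them, and cells in which reprogramming was induced. The NPCs were sorted as negative for SSEA1, P-RFP and X-GFP. For reprogramming, doxycycline and ascorbic acid were first added in NPC medium. The cells were seeded the next day on irradiated male fibroblast feeders with doxycycline, LIF and ascorbic acid. Cells left untreated (control) or given 10 ng/ml IFNγ for the days from 0 to 5 were sorted at day 2 as negative for the dye that marked the feeders, at day 5 as SSEA1+, and at day 7 as SSEA1+ cells split by X-GFP into a negative, a medium and a high population. The NPC sort removed cells with Nanog reporter activity, so the NPC level of Nanog is not independent of the gate.

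Naive pluripotency is the state of mouse ESCs and of the early epiblast, held by a network of transcription factors that bind one another's genes. LIF acts through its receptor and JAK kinases on STAT3, whose known targets include Klf4 and Tfcp2l1, while NANOG, ESRRB, KLF2, KLF5 and TBX3 can each sustain self-renewal when supplied in excess. In reprogramming, this endogenous network is activated after the transgenes, and in female cells the inactive X chromosome is reactivated as it is established.

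Each library had 24746109 to 37056508 reads on genes (median 28332222.5). The values are the authors' normalized counts, that is reads divided by 1 DESeq2 size factor per library, and levels are compared between genes only after division by exon length. Differences were tested with limma, a linear model with a shared estimate of the spread, on log2(normalized count + 1). Each test used the libraries of the groups compared and genes with a mean above 10 there, with a Benjamini-Hochberg adjusted p under 0.1 as the threshold. Every log2 difference below is on this scale, with its SE. The summed normalized counts of 5 NPC markers (Nes, Sox1, Pax6, Olig2 and Fabp7) were 40623 and 43553 in NPCs and 624 and 685 in ESCs. Those of 6 ESC markers (Pou5f1, Sox2, Dppa5a, Dppa4, Utf1 and Tdh) were 6415 and 8028 in NPCs and 93469.9 and 96611 in ESCs, and nearly all of the NPC sum was Sox2, which neural precursors also express. Normalized counts of 4 Y-linked genes, which a female line lacks, summed to 125 to 253 in the day 2 libraries. They summed to at most 12.6 in any other library, and the feeders were the male cells of the culture. In bulk samples such as these, fewer cells expressing a gene and less RNA per cell cannot be told apart.

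RefSeq promoter windows were found for 6 of the 10 members, and Nanog, Esrrb and Nr5a2 each had a further window at another start site, not shown. The 250 bases before the start site are shown for 4 of them, because Nanog rose most by day 2, Zfp42 had almost no reads in NPCs, and Esrrb and Tfcp2l1 rose steeply by day 5 (build GRCm38.p6, 5′ to 3′ on the strand of the gene). Capitals mark matches on either strand to 5 motifs, TTTGCAT (part of the octamer bound by OCT4), ACAATG (SOX factors), AAGGTCA (ESRRB and NR5A2), TTCNNNGAA (STAT factors) and CCACACCC (KLF factors). The windows are chr6:122707239-122707488 (plus strand), chr8:43307010-43307259 (minus), chr12:86360867-86361116 (plus) and chr1:118627695-118627944 (plus).
Nanog: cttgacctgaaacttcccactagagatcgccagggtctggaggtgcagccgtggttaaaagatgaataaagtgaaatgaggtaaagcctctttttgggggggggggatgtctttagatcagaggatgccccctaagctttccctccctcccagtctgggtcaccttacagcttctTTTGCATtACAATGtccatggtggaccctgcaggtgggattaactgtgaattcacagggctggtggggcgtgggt
Zfp42: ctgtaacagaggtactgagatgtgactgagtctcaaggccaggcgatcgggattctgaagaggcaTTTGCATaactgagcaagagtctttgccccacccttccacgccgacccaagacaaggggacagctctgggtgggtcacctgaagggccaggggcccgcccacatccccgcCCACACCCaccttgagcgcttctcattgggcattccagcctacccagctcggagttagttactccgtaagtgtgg
Esrrb: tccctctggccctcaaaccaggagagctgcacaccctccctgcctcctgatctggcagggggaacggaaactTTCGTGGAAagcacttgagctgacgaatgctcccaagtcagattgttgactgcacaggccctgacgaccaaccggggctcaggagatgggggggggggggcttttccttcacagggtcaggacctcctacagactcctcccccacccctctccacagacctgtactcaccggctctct
Tfcp2l1: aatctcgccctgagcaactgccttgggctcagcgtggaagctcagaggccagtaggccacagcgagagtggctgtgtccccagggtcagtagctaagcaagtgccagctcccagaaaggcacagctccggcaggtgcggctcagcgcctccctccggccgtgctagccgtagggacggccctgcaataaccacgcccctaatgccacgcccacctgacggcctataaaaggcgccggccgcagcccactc
In Nanog, TTTGCAT began 75 bases before the start site and was followed, after 1 base, by ACAATG. In Zfp42, TTTGCAT began 185 and CCACACCC 75 bases before the start, and in Esrrb a match to TTCNNNGAA began 178 bases before it. These distances hold for the windows shown. In the further window of Nanog the same TTTGCAT began 151 bases before the start, and the further window of Esrrb (chr12:86421394-86421643) held no match. No match to the 5 motifs was present in this window of Tfcp2l1, or in those of Klf2 and Nr5a2. Of 32851 windows of all genes, 4.12% held TTTGCAT, 10.7% ACAATG, 4.08% AAGGTCA, 7.02% TTCNNNGAA and 3.20% CCACACCC. A match is a sequence description and was not tied to binding here.

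In control cells, the members did not rise together. Relative to the mean of the ESC libraries, Nanog stood at 3.50 ± 0.257% at day 2 (SD, n = 2, as for all percentages of ESC below), from 0.0346 ± 9.36e-05% in NPCs, while Esrrb, Klf2, Zfp42 and Prdm14 were still under 1% in both libraries. At day 5 every member had reached 10% of its ESC level in both libraries, and Sall4 stood at 109 ± 13.7%, with 1 library between the ESC libraries and the other above both. Among the 10 members, Sall4 was the only one at 50% or more in both libraries at day 5 and in X-GFP–negative cells, and Tbx3 joined it in X-GFP–medium cells. In X-GFP–high cells, 8 of the 10 had reached 50%, all but Nanog (47.7 ± 1.02%) and Nr5a2 (46.7 ± 1.08%), and 2, Tbx3 and Sall4, had reached 90%. Klf5, Tbx3 and Sall4 were above 1% of ESC already in NPCs, at 6.86 ± 1.18%, 14.8 ± 6.76% and 10.1 ± 2.89%. With the NPC level subtracted from both sides, 9 of 10 reached 10% at day 5, all but Klf5, and 8 reached 50% in X-GFP–high cells.

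**Figure D1:**
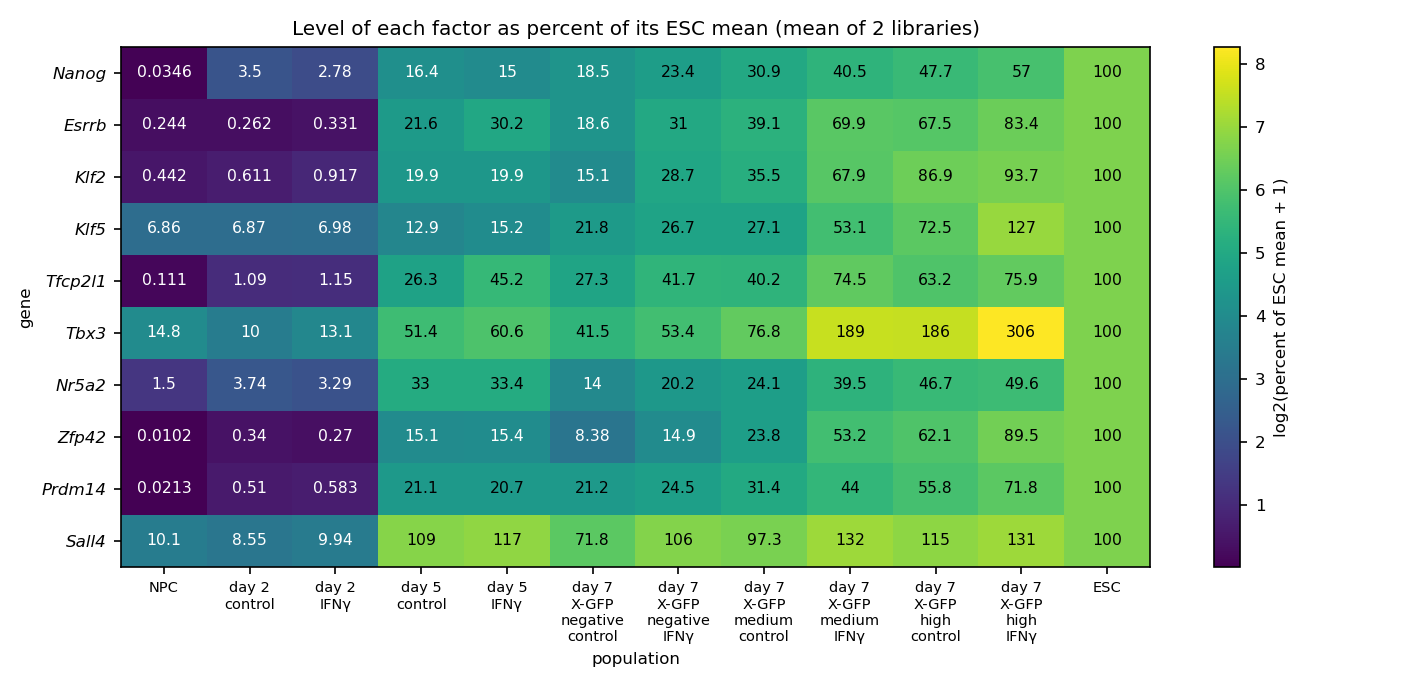
Each cell gives the mean of 2 libraries as a percentage of the ESC mean of that gene (rows, genes; columns, the 12 populations; colour, log2 of the percentage + 1). Nanog is at 3.50% at day 2 while Esrrb, Klf2, Zfp42 and Prdm14 are under 1%, Sall4 is at 109% at day 5, and Tbx3 reaches 306% in IFNγ-treated X-GFP–high cells.

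Between neighbouring populations of the control arm, 4 of the 9 members tested rose from NPCs to day 2, against 31.6% of all genes. These were Nanog, with a log2 difference of 6.51 ± 0.20 (adjusted p = 3.16e-05), Zfp42, Tfcp2l1 and Nr5a2, and Prdm14 was under the filter with 0 and 1 read in NPCs. From day 2 to day 5 all 10 rose, against 34.9% of all genes, by 0.91 (Klf5) to 6.41 (Esrrb). The sorting gate changed along with time between these populations. Cells of day 2 were not sorted by SSEA1, and those of day 5 were sorted as SSEA1+ but not split by X-GFP. X-GFP–negative cells are only a part of the SSEA1+ cells of day 7. Time and gate cannot be told apart at these steps, here and for the single members below. From day 5 to X-GFP–negative cells at day 7 the members split. Klf5 and Nanog rose, 2 of 10 (background 34.2%) and Nr5a2, Zfp42 and Sall4 fell, 3 of 10 (background 29.5%). DESeq2 and edgeR called 1 higher and 5 lower at this step, and rescaled values 1 and 6. Without day 5 control replicate 1, Esrrb, Klf2 and Tfcp2l1 also passed as lower here, and Tbx3 did so without day 5 control replicate 2 or X-GFP–negative control replicate 2. All 10 rose from X-GFP–negative to X-GFP–medium cells (background 21.9%) and from X-GFP–medium to X-GFP–high cells (background 31.4%). From X-GFP–high cells to ESCs 8 rose (background 37.8%), and Tbx3 and Sall4 fell, 2 of 10 (background 37.9%). Values rescaled to the same total per library moved the median of all genes by -0.126 between day 2 and day 5, and between X-GFP–negative and X-GFP–medium cells they moved the share of calls that were higher from 46.5 to 60.2%. All 10 members were higher at each of these 2 steps under that scaling too.

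**Figure D2:**
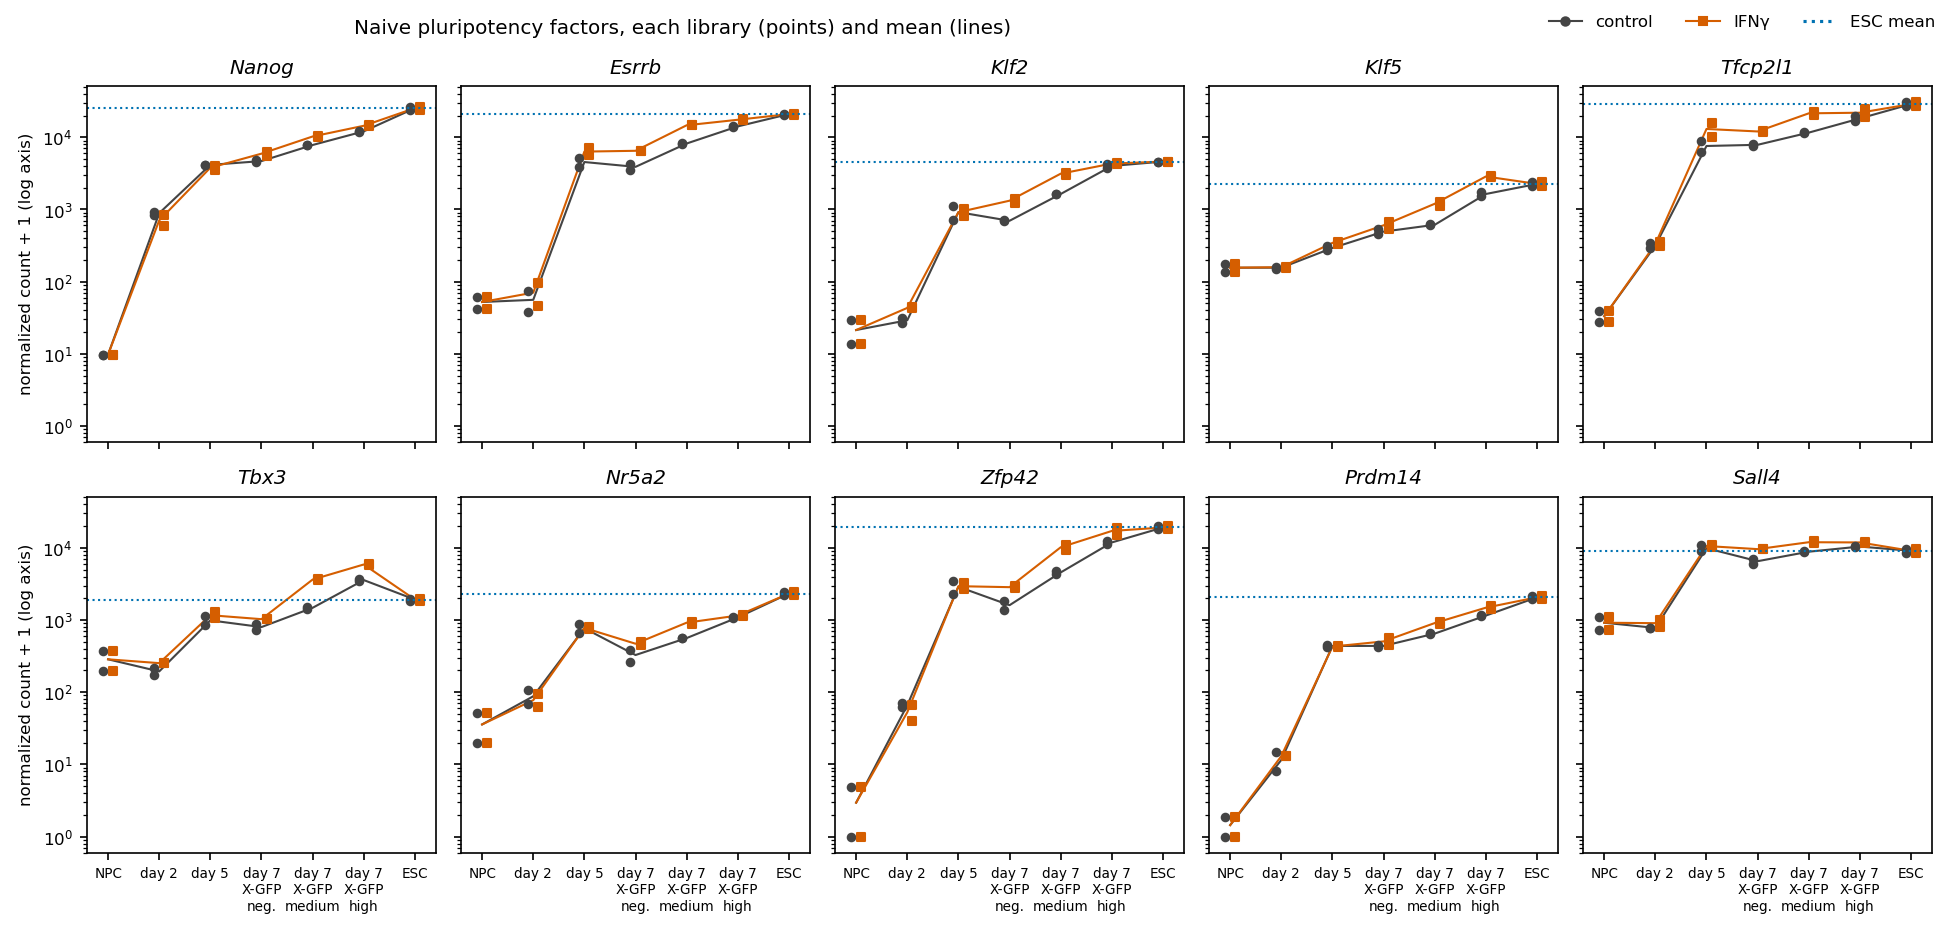
Normalized counts + 1 of each member on a log axis, by population from NPCs to ESCs. Points are the libraries, lines join the means of the control (grey) and IFNγ-treated (orange) arms, which share the NPC and ESC libraries, and the dotted line is the ESC mean. Nanog climbs from a mean of 8.77 to 888 by day 2, and Sall4 meets the dotted line at day 5. In the day 7 populations the treated line lies above the control line for every member, by little for Klf2 and Nr5a2 in X-GFP–high cells. At day 5 it already lies above for Tfcp2l1, Esrrb and some others, and below for Nanog.

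Nanog (ENSMUSG00000012396, chromosome 6 from 122707489 to 122714633 of GRCm38/mm10, as for all positions below) encodes a homeodomain factor that stabilises self-renewal. Nanog had 8.75 and 8.78 normalized counts in the 2 NPC libraries, 934 and 842 in control cells at day 2 and 4184 and 4110.0 at day 5. Control cells of day 7 had 4542 and 4823 in the X-GFP–negative gate, 7922 and 7714 in the medium and 12268 and 11903 in the high one, and ESCs had 26564 and 24098. Its values thus rose at every step, with no overlap between neighbouring populations, and the smallest step, from day 5 to X-GFP–negative cells, was 0.17 ± 0.06 (adjusted p = 0.0491). That call was lost with rescaled values, DESeq2 or edgeR, or without day 5 control replicate 2 (0.16, adjusted p = 0.119) or X-GFP–negative control replicate 2 (0.13, adjusted p = 0.251). With IFNγ, Nanog had 825 and 583 normalized counts at day 2 and 4016 and 3564 at day 5. Treated cells of day 7 had 6297 and 5569 in the negative, 10547 and 9973 in the medium and 14755 and 14120.2 in the high gate. Both treated libraries were below both control libraries at days 2 and 5 and above them in all 3 populations of day 7. Nanog was the member with the highest level per length in ESCs, 11298 ± 778 normalized counts per kb of exon, beside 10159.9 ± 590.1 for Zfp42. Below them came Esrrb (3470.2 ± 82.5), Tfcp2l1 (3056 ± 269), Klf2 (2496 ± 4.46), Sall4 (1640.0 ± 128), Prdm14 (803 ± 56.4), Klf5 (434 ± 40.8), Nr5a2 (394 ± 21.8) and Tbx3 (289.7 ± 13.3, SD, n = 2 each). The libraries of Klf5 and Nr5a2 overlapped on this scale, and those of the other neighbours in this order did not.

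Sall4 (ENSMUSG00000027547, chromosome 2 from 168748332 to 168767943) encodes a zinc finger factor that partners OCT4 and NANOG. Sall4 had 1101 and 730.0 normalized counts in the 2 NPC libraries, 772 and 780.1 in control cells at day 2 and 9002 and 10761 at day 5. By day 7 the control values were 6038 and 7005 (X-GFP–negative), 8734 and 8926 (medium) and 10252 and 10561 (high), beside 9579 and 8579 in ESCs. It rose by 3.66 ± 0.09 (adjusted p = 2.30e-06) between days 2 and 5 and was lower again in X-GFP–negative cells, with a difference of -0.60 ± 0.10 (adjusted p = 0.0016) and no overlap between the libraries. The IFNγ-treated values of Sall4 were 1004 and 800.5 at day 2 and 10347 and 10814 at day 5. They were 9681 and 9485, then 11556 and 12343, then 11571 and 12159 in the 3 gates of day 7, from negative to high. The 6 treated libraries of day 7 ran from 9485 to 12343, and the 6 control libraries from 6038 to 10561. An annotated transcript on the opposite strand, Gm14261, had 1.02 to 33.6 normalized counts, little beside Sall4.

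Esrrb (ENSMUSG00000021255, chromosome 12 from 86361117 to 86521628) and Nr5a2 (ENSMUSG00000026398, chromosome 1 from 136842571 to 136960448) encode orphan nuclear receptors that bind the same DNA element and can replace OCT4 or KLF4 functions in reprogramming. Esrrb had 61.3 and 41.3 normalized counts in the 2 NPC libraries, 73.3 and 36.7 in control cells at day 2 and 3917 and 5166 at day 5. Control cells of day 7 had 3560.2 and 4227 in the X-GFP–negative gate, 7967 and 8437 in the medium and 13773 and 14537 in the high one, and ESCs had 21337 and 20632. The NPC and day 2 libraries of Esrrb overlapped, and its rise of 6.41 ± 0.30 (adjusted p = 6.50e-06) to day 5 was the largest of the 10 at that step. With IFNγ, Esrrb had 94.4 and 44.5 normalized counts at day 2 and 5636 and 7035 at day 5. Treated cells of day 7 had 6470.2 and 6528 in the negative, 14741 and 14604 in the medium and 17843 and 17142 in the high gate. Treated X-GFP–medium cells held more Esrrb in both libraries than either control X-GFP–high library, a difference that did not pass the threshold.

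Nr5a2 had 18.5 and 51.0 normalized counts in the 2 NPC libraries, 107 and 66.5 in control cells at day 2 and 656 and 877 at day 5. By day 7 the control values were 264 and 387 (X-GFP–negative), 555 and 566 (medium) and 1066 and 1102 (high), beside 2413 and 2231 in ESCs. Nr5a2 was highest among the members, apart from Sall4 and Tbx3, in percent of ESC at day 5 (33.0 ± 6.70%), and then showed the deepest fall of the 10, -1.24 ± 0.20 (adjusted p = 0.00128) from day 5 to X-GFP–negative cells. Its control X-GFP–medium libraries were still below both day 5 libraries. The IFNγ-treated values of Nr5a2 were 92.5 and 60.4 at day 2 and 789 and 760.0 at day 5. They were 488 and 448, then 949 and 884, then 1148 and 1155 in the 3 gates of day 7, from negative to high. It was the only member whose mean was under 50% of ESC in both arms of X-GFP–high cells, at 46.7 ± 1.08% and 49.6 ± 0.194%. The rise of Nr5a2 from NPCs to day 2, 1.42 ± 0.51 (adjusted p = 0.0513), was lost without NPC replicate 1 (0.72, adjusted p = 0.108), day 2 control replicate 1 (1.09, adjusted p = 0.311) or day 2 control replicate 2 (1.76, adjusted p = 0.152).

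Klf2 (ENSMUSG00000055148, chromosome 8 from 72319033 to 72321656) and Klf5 (ENSMUSG00000005148, chromosome 14 from 99298691 to 99315036) encode Krüppel-like factors that share DNA sites with KLF4, a factor of the cassette. Klf2 had 12.6 and 28.1 normalized counts in the 2 NPC libraries, 30.6 and 25.8 in control cells at day 2 and 718 and 1117 at day 5. Control cells of day 7 had 707 and 686 in the X-GFP–negative gate, 1661 and 1614 in the medium and 3806 and 4202 in the high one, and ESCs had 4616 and 4604. Klf2 came closest to ESCs among the members that remained below them in control X-GFP–high cells, at 86.9 ± 6.08%. With IFNγ, Klf2 had 43.0 and 41.6 normalized counts at day 2 and 821 and 1012 at day 5. Treated cells of day 7 had 1400.3 and 1244 in the negative, 3213 and 3049 in the medium and 4292 and 4350.0 in the high gate. The mean of treated X-GFP–medium cells was 1.91 times that of the control, and the treated X-GFP–high libraries lay just below ESCs.

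Klf5 had 136 and 174 normalized counts in the 2 NPC libraries, 149.7 and 161 in control cells at day 2 and 277 and 307 at day 5. By day 7 the control values were 535 and 449.6 (X-GFP–negative), 622 and 603 (medium) and 1554 and 1722 (high), beside 2109 and 2409 in ESCs. The NPC and day 2 libraries of Klf5 overlapped. It had the smallest rise of the 10 to day 5, 0.91 ± 0.15 (adjusted p = 0.00169), followed by the largest of the 10 from X-GFP–medium to X-GFP–high cells, 1.42 ± 0.07 (adjusted p = 5.03e-10). Unlike Nr5a2, Zfp42 and Sall4, it rose from day 5 to X-GFP–negative cells, by 0.75 ± 0.13 (adjusted p = 0.00197). The IFNγ-treated values of Klf5 were 159.9 and 155 at day 2 and 357 and 329.8 at day 5. They were 665 and 540.5, then 1115 and 1282, then 2801 and 2924 in the 3 gates of day 7, from negative to high. The treated X-GFP–high libraries were above both ESC libraries. The rise from X-GFP–negative to X-GFP–medium control cells, 0.32 ± 0.10 (adjusted p = 0.0227), was lost without X-GFP–medium control replicate 1 (0.30, adjusted p = 0.104) or X-GFP–negative control replicate 2 (0.19, adjusted p = 0.113).

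Tfcp2l1 (ENSMUSG00000026380, chromosome 1 from 118627945 to 118685168) encodes a CP2-family factor known as a target of LIF and STAT3. Tfcp2l1 had 37.9 and 26.4 normalized counts in the 2 NPC libraries, 338 and 293 in control cells at day 2 and 6287 and 8868 at day 5. Control cells of day 7 had 7596 and 8139 in the X-GFP–negative gate, 11663 and 11551 in the medium and 19882 and 16596 in the high one, and ESCs had 27049 and 30642. It rose in both early steps, by 3.27 ± 0.25 (adjusted p = 0.000181) and 4.56 ± 0.16 (adjusted p = 3.75e-06), and did not pass between day 5 and X-GFP–negative cells, where the libraries overlapped. That last difference passed as a fall without day 5 control replicate 1 (-0.17, adjusted p = 0.0746) and as a rise without replicate 2 of that group (0.32, adjusted p = 0.00239). With IFNγ, Tfcp2l1 had 311 and 351 normalized counts at day 2 and 10222 and 15868 at day 5. Treated cells of day 7 had 12259.5 and 11824 in the negative, 22463 and 20488 in the medium and 24595 and 19209.8 in the high gate. In X-GFP–high cells the groups overlapped, with 1 treated library below 1 control library.

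Tbx3 (ENSMUSG00000018604, chromosome 5 from 119670669 to 119684724) encodes a T-box factor of the network that also acts in the primitive endoderm. Tbx3 had 193 and 376 normalized counts in the 2 NPC libraries, 172 and 213 in control cells at day 2 and 1117 and 857 at day 5. By day 7 the control values were 727 and 866 (X-GFP–negative), 1510.1 and 1436 (medium) and 3659.7 and 3482 (high), beside 1981 and 1857 in ESCs. Tbx3 exceeded its ESC level. Its value in control X-GFP–high cells was 186 ± 6.55% of that in ESCs, and the step to ESCs was -0.90 ± 0.06 (adjusted p = 1.20e-08). The IFNγ-treated values of Tbx3 were 252 and 250.3 at day 2 and 1272 and 1055 at day 5. They were 1029.9 and 1021, then 3697 and 3561, then 5818 and 5924 in the 3 gates of day 7, from negative to high. The libraries of treated X-GFP–medium and control X-GFP–high cells overlapped, and treated X-GFP–high cells stood above every other population, at 306 ± 3.89% of ESC. The antisense transcript Tbx3os1 had at most 14.6 normalized counts in any library.

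Zfp42 (ENSMUSG00000051176, chromosome 8 from 43295063 to 43306980), also called Rex1, encodes a zinc finger factor used as a marker of naive cells, and Prdm14 (ENSMUSG00000042414, chromosome 1 from 13113457 to 13127163) encodes a PR-domain factor that represses DNA methyltransferase genes and FGF signaling. Zfp42 had 3.89 and 0 normalized counts in the 2 NPC libraries, 69.2 and 60.5 in control cells at day 2 and 2255 and 3509 at day 5. Control cells of day 7 had 1356 and 1848 in the X-GFP–negative gate, 4301 and 4808 in the medium and 11186 and 12537 in the high one, and ESCs had 19896 and 18326. Zfp42 had 4 and 0 reads in NPCs, so that the size of its first step depends on the pseudocount, and the largest step after day 5 of any member was its rise from X-GFP–negative to X-GFP–medium cells, 1.52 ± 0.11 (adjusted p = 4.20e-06). It fell before that, with a difference of -0.83 ± 0.21 (adjusted p = 0.0103), and was the only member under 10% of ESC in X-GFP–negative control cells. With IFNγ, Zfp42 had 64.5 and 38.6 normalized counts at day 2 and 2677 and 3201 at day 5. Treated cells of day 7 had 2777 and 2917 in the negative, 9438 and 10889.6 in the medium and 15277 and 18949.8 in the high gate. The mean of treated X-GFP–medium cells was 2.23 times that of the control, and in X-GFP–high cells this ratio was 1.44.

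Prdm14 had 0 and 0.878 normalized counts in the 2 NPC libraries, 7.13 and 13.9 in control cells at day 2 and 420.0 and 451 at day 5. By day 7 the control values were 421 and 452 (X-GFP–negative), 651 and 642 (medium) and 1168 and 1131 (high), beside 2162 and 1958 in ESCs. The day 5 and X-GFP–negative control libraries of Prdm14 overlapped, and it then rose in 2 steps of 0.57 ± 0.08 and 0.83 ± 0.07. The IFNγ-treated values of Prdm14 were 12.2 and 11.9 at day 2 and 435 and 419.9 at day 5. They were 555 and 452, then 889 and 922, then 1417 and 1542 in the 3 gates of day 7, from negative to high. Its profile over the 12 populations was the most like that of Tfcp2l1 among the members, described below.

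Each treated population was set against its own control to ask when the members differ between the arms. At day 2, during treatment, 0 of the 10 members passed in either direction with limma, 1 had an unadjusted p under 0.05, and DESeq2 and edgeR also called 0. The log2 differences of the members ran from -0.37 to 0.57. Of all genes, 5.03% were higher and 3.45% lower. At day 5, 0 members passed with limma and with edgeR, 2 had an unadjusted p under 0.05, and DESeq2 called 1, Esrrb (0.48, adjusted p = 0.0248), the background being 1.65% higher and 0.535% lower. The largest differences at day 5 were those of Tfcp2l1, 0.77 ± 0.23 (adjusted p = 0.171), and Esrrb, 0.49 ± 0.15 (adjusted p = 0.188), both with no overlap between the libraries. Both passed without day 5 IFNγ replicate 1, whose values were the lower of the treated pair (Tfcp2l1, 1.09, adjusted p = 0.0221, and Esrrb, 0.65, adjusted p = 0.0523). Without day 2 IFNγ replicate 1, Nanog passed as lower at day 2 (-0.60, adjusted p = 0.0311). The 9 fibroblast markers summed to 41675 and 61794 in control and 25498 and 31099.7 in treated cells at day 2, and the Y-linked genes to 218 and 253 in control and 125 and 223 in treated cells. In NPCs the fibroblast markers summed to 31029.6 and 44565.5 and the Y-linked genes to 1.94 and 0. The fibroblast list was thus not specific to feeders, and the part of feeder RNA in the day 2 values was not tested.

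At day 7, after IFNγ had been withdrawn, the members were higher in treated cells. In X-GFP–negative cells 9 of 10 were higher and 0 lower, against a background of 31.1% higher and 30.8% lower. In X-GFP–medium cells all 10 were higher and 0 lower, against 33.3% higher and 29.6% lower. Among X-GFP–high cells, 7 members passed as higher and 0 as lower, against 18.1% higher and 20.4% lower. The median log2 difference of the members was 0.55 in the negative, 0.86 in the medium and 0.28 in the high population, beside 0.02, 0.04 and 0.03 over all genes tested. Values rescaled to the same total per library moved the median of all genes in X-GFP–negative cells by 0.158 and the share of calls that were higher from 50.3 to 66.3%, and all 10 members then passed as higher.

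**Figure D3:**
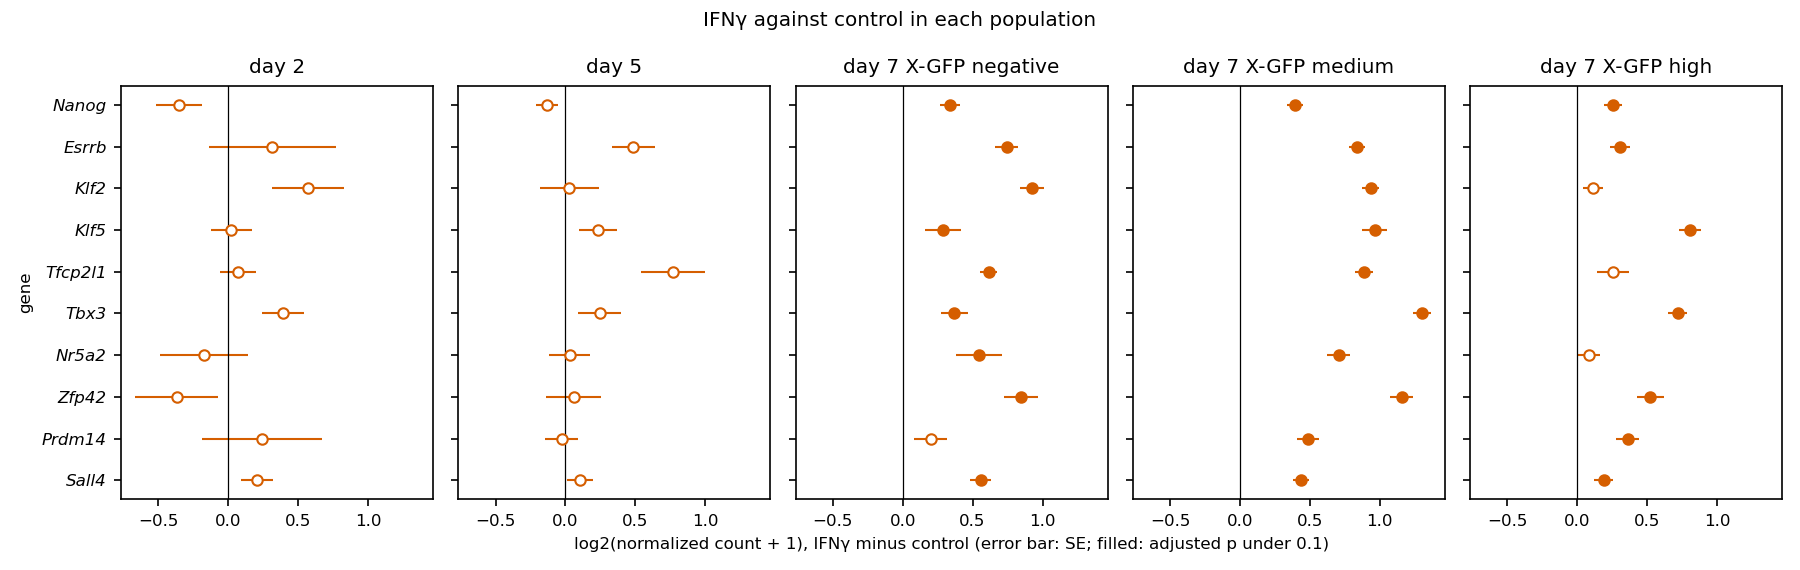
Log2 difference of IFNγ-treated minus control cells for each member in each population (x axis, log2 units; error bars, SE; filled points, adjusted p under 0.1). No point is filled at days 2 and 5, all 10 are filled in X-GFP–medium cells, where Tbx3 is farthest from 0 at 1.30, and for each of the 10 the X-GFP–high point lies nearer to 0 than the X-GFP–medium point.

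In X-GFP–medium cells, Tbx3 and Zfp42 rose most, by 1.30 ± 0.06 (adjusted p = 5.52e-07) and 1.16 ± 0.08 (adjusted p = 2.51e-06). Klf5 rose by 0.96 ± 0.09, Klf2 by 0.93 ± 0.06, Tfcp2l1 by 0.89 ± 0.06, Esrrb by 0.84 ± 0.06 and Nr5a2 by 0.71 ± 0.08, and Prdm14, Sall4 and Nanog rose least, the last by 0.39 ± 0.06 (adjusted p = 0.000292). The order differed in X-GFP–negative cells, where Klf2 (0.92 ± 0.09, adjusted p = 3.30e-05) and Zfp42 (0.85 ± 0.12, adjusted p = 0.000425) led. There Klf5 rose by 0.29 ± 0.13 (adjusted p = 0.0846), and Prdm14 did not pass, at 0.20 ± 0.12 (adjusted p = 0.184). With all 24 libraries in 1 limma fit, Zfp42 (adjusted p = 0.114), Tbx3 (adjusted p = 0.132) and Nr5a2 (adjusted p = 0.158) lost their calls in X-GFP–negative cells. In that fit Prdm14 lost its call in X-GFP–medium cells (adjusted p = 0.101). Prdm14 passed without X-GFP–negative IFNγ replicate 2 (0.35, adjusted p = 0.0329). The call of Klf5 was lost with DESeq2 and with no filter on low values, and without X-GFP–negative IFNγ replicate 1 (0.14, adjusted p = 0.417) or X-GFP–negative control replicate 2 (0.16, adjusted p = 0.399). That of Nr5a2, 0.55 ± 0.17, was lost without X-GFP–negative control replicate 1 (0.27, adjusted p = 0.146).

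In X-GFP–high cells, Klf5 (0.81 ± 0.08, adjusted p = 1.77e-05) and Tbx3 (0.72 ± 0.07, adjusted p = 1.46e-05) rose most, the members that were above their ESC level in treated X-GFP–high cells together with Sall4. Zfp42 rose by 0.52 ± 0.10, Prdm14 by 0.36 ± 0.08, Esrrb by 0.31 ± 0.07, Nanog by 0.26 ± 0.07 and Sall4 by 0.19 ± 0.07. Tfcp2l1 (0.26 ± 0.11, adjusted p = 0.108), Klf2 (0.11 ± 0.07, adjusted p = 0.265) and Nr5a2 (0.09 ± 0.08, adjusted p = 0.443) did not pass. Tfcp2l1 passed without X-GFP–high IFNγ replicate 2 (0.44, adjusted p = 2.25e-10). Without X-GFP–high control replicate 1 the calls of Nanog (0.28, adjusted p = 0.154), Esrrb (0.27, adjusted p = 0.189) and Sall4 (0.17, adjusted p = 0.406) were lost, leaving 4. Those of Nanog (0.23, adjusted p = 0.191) and Sall4 (0.21, adjusted p = 0.229) were also lost without X-GFP–high control replicate 2.

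Several sums over marker lists of other cell types differed between the arms at day 7, though the genes of a list need not be specific to those cells. The summed normalized counts of 9 fibroblast markers were 4481 and 5102 in control and 1047 and 1075 in treated X-GFP–negative cells, 5077 and 5650.1 against 730.0 and 777 in X-GFP–medium cells, and 2190.3 and 2672 against 671 and 736 in X-GFP–high cells. Dcn made up most of the control sums. The other 8 summed to 679 and 802 against 760.2 and 856 in the negative, 605 and 631 against 535 and 564 in the medium and 496 and 522 against 617 and 629 in the high population, so that without Dcn the treated and control sums overlapped in the first, and the treated sums were lower in the second and higher in the third. None of the 9 was at 0 in both libraries of a day 7 population. For 7 epithelial markers (Cdh1, Epcam and keratins among them) the sums were 57209.7 and 63359 in control against 29221 and 29256 in treated X-GFP–negative cells. They were 44815 and 46322 against 19987 and 21981 in the medium and 26267 and 29679.8 against 13753 and 14437 in the high population. ESCs summed to 13514 and 13417 on this list, most of it Cdh1 (10150 and 10290), so Cdh1 was not specific to other cells. The keratins were low in ESCs, with 572 and 471 for Krt8 and 11.8 and 8.57 for Krt14. In X-GFP–negative cells Krt8 had 25280 and 22690 in control against 7517 and 8319 in treated cells. Krt14 had 3121 and 3041 against 644 and 1105 there, while Trp63, near the floor, was not lower with IFNγ (4.39 and 5.37 against 5.37 and 5.94). The 5 neural precursor markers summed to 4754 and 4831 in control against 4975 and 5181 in treated X-GFP–negative cells. They summed to 2981 and 3232 against 1545 and 1849 in X-GFP–medium cells and 1566 and 1628 against 711 and 743 in X-GFP–high cells. Nes made up most of these sums (4603 and 4579 in control and 4701 and 4895 in treated X-GFP–negative cells). Fabp7, at 12990 and 13490 in NPCs, had 8.78 and 11.8 in control and 16.1 and 15.8 in treated X-GFP–negative cells. For 5 primitive endoderm markers the sums were 619 and 663 against 1532 and 1643, 616 and 618 against 1011 and 1153, and 499 and 501 against 483 and 504 in the same order. In X-GFP–negative cells all 5 were higher with IFNγ in both libraries, among them Pdgfra (86.7 and 122 against 495 and 488) and Foxa2 (146 and 169 against 364 and 477). Gata4 differed least there (256 and 246 against 294 and 257). The 5 did not move together in X-GFP–medium cells, where Pdgfra (79.1 and 87.8 against 413 and 445), Gata6 and Sox17 were higher with IFNγ. Gata4 (334 and 314 against 267 and 285) and Foxa2 (106 and 129 against 32.5 and 80.5) were lower there, and Foxa2 had 1550 and 2037 in NPCs. The sums of 4 trophoblast markers were 399 and 341 in control against 151 and 193 in treated X-GFP–negative cells. They were 189 and 146 against 103 and 91.0 in the medium and 129 and 106 against 93.7 and 91.3 in the high population. In X-GFP–negative cells Elf5 (312 and 269 against 39.7 and 71.3) and Ascl2 were lower with IFNγ, and Cdx2 and Hand1 were higher. The part of these differences in those of the members was not tested.

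Whether the IFNγ effect differed between the X-GFP populations was tested as an interaction. From X-GFP–negative to X-GFP–medium cells it was larger for 3 of 10 members (background 7.31%), Tbx3 by 0.93 ± 0.12 (adjusted p = 0.00169), Klf5 by 0.68 ± 0.17 (adjusted p = 0.0342) and Tfcp2l1 by 0.27 ± 0.08 (adjusted p = 0.0701). With rescaled values the median of all genes in this interaction moved by -0.164 and the share of calls that were higher from 46.6 to 12.2%. Tfcp2l1 then lost its call, as it did without X-GFP–medium IFNγ replicate 1 (0.21, adjusted p = 0.178), X-GFP–negative IFNγ replicate 2, X-GFP–negative control replicate 2 or either X-GFP–medium control library. Klf5 lost its call without either X-GFP–medium control library, X-GFP–negative IFNγ replicate 2 or X-GFP–negative control replicate 1 (0.55, adjusted p = 0.118), and of the 3 calls that of Tbx3 alone was kept throughout, leaving 1 without either X-GFP–medium control library or X-GFP–negative IFNγ replicate 2. From X-GFP–medium to X-GFP–high cells the effect was smaller for 7 of 10 members (background 8.06%), led by Klf2 at -0.82 ± 0.09 (adjusted p = 0.00271), with Zfp42, Tfcp2l1, Nr5a2, Tbx3, Esrrb and Sall4 at -0.63 to -0.25. The other 3, Klf5 (-0.16 ± 0.12), Nanog (-0.14 ± 0.08) and Prdm14 (-0.12 ± 0.10), did not pass. Leaving out X-GFP–medium control replicate 1 left 4 of the 7, Tfcp2l1 (-0.63, adjusted p = 0.143), Zfp42 (-0.55, adjusted p = 0.154) and Sall4 (-0.23, adjusted p = 0.28) being lost. Tfcp2l1 was also lost without X-GFP–medium control replicate 2 or X-GFP–high control replicate 1, Zfp42 without X-GFP–high control replicate 2, and Sall4 without those 3 libraries, X-GFP–high IFNγ replicate 1 or X-GFP–medium IFNγ replicate 2. The X-GFP–medium libraries enter both interactions.

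A treated population was next set beside the control population of the next X-GFP level. Treated X-GFP–negative cells were below control X-GFP–medium cells in 7 of 10 members and above them in 1 (backgrounds 30.9% and 27.8%). Zfp42 was lowest, at -0.68 ± 0.07 (adjusted p = 9.99e-06), Sall4 was the one above, by 0.12 ± 0.05 (adjusted p = 0.0685), and Tfcp2l1 (0.05 ± 0.05) and Klf5 (-0.03 ± 0.10) did not pass. Rescaled values moved the share of calls that were higher here from 47.3 to 58.9%. Treated X-GFP–medium cells were below control X-GFP–high cells in 6 members and above them in 2 (backgrounds 19.9% and 17.4%). Klf5 was lowest, at -0.45 ± 0.09 (adjusted p = 0.00495), Tfcp2l1 and Sall4 were above, by 0.24 ± 0.09 and 0.20 ± 0.06, and Esrrb (0.05 ± 0.06) and Tbx3 (0.02 ± 0.06) did not pass. Apart from Zfp42 and Tbx3 in the first of these comparisons, no member differed by more than 0.5 on the log2 scale. In the first comparison, Nr5a2 lost its call without X-GFP–medium control replicate 1 (-0.27, adjusted p = 0.137) or 2 (-0.25, adjusted p = 0.173). Sall4 lost it without either of these (0.10, adjusted p = 0.343, and 0.13, adjusted p = 0.214) or without X-GFP–negative IFNγ replicate 1 (0.10, adjusted p = 0.124). In the second, leaving out X-GFP–high control replicate 1 ended the calls of Nanog (-0.21, adjusted p = 0.171), Nr5a2 (-0.27, adjusted p = 0.151) and Sall4 (0.18, adjusted p = 0.271). Leaving out X-GFP–high control replicate 2 ended those of Tfcp2l1 (0.11, adjusted p = 0.573), Zfp42 (-0.14, adjusted p = 0.418), Nr5a2 and Sall4. Zfp42 was also lost without X-GFP–medium IFNγ replicate 1 (-0.12, adjusted p = 0.164), and Nr5a2 without replicate 2 of that group (-0.19, adjusted p = 0.118).

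Treated X-GFP–high cells were compared with ESCs to ask how near the members came. Of the 10, 3 were above ESCs and 5 below (backgrounds 33.2% and 33.9%). Tbx3 stood 1.61 ± 0.07 (adjusted p = 6.84e-09) above on the log2 scale, Sall4 0.39 ± 0.07 and Klf5 0.34 ± 0.08 above. Nr5a2 (-1.01 ± 0.08, adjusted p = 5.92e-07) and Nanog (-0.81 ± 0.08, adjusted p = 3.29e-06) were farthest below, followed by Prdm14 (-0.48 ± 0.08), Tfcp2l1 (-0.41 ± 0.11) and Esrrb (-0.26 ± 0.07, and -0.24, adjusted p = 0.137 without ESC replicate 1). Klf2 (-0.09 ± 0.06) and Zfp42 (-0.17 ± 0.10) did not pass, and Zfp42 passed without X-GFP–high IFNγ replicate 2 (-0.32, adjusted p = 3.34e-06). In percent of ESC, 9 of 10 members were at 50% or more in both treated X-GFP–high libraries, all but Nr5a2, and 4, Klf2, Klf5, Tbx3 and Sall4, at 90% or more. In treated X-GFP–medium cells 5 were at 50% or more, beside 2 in the control.

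Other genes of the network were described from a list of 26, which holds the cassette genes, the LIF pathway and further naive markers. In X-GFP–medium cells 23 of the 26 were higher and 3 lower with IFNγ, with a median log2 difference of 0.71, against 33.3% and 29.6% of all genes. The counts were 17 and 3 among X-GFP–negative cells (backgrounds 31.1% and 30.8%) and 15 and 3 among X-GFP–high cells (backgrounds 18.1% and 20.4%). At day 2, when 19 of the 26 could be tested, 4 were higher and 3 lower (backgrounds 5.03% and 3.45%), and at day 5 limma and edgeR called 3 higher and 0 lower (limma backgrounds 1.65% and 0.535%), with 13 at an unadjusted p under 0.05, and DESeq2 7 and 3. Nr0b1, an orphan receptor gene of the network, had 391 ± 15.7 normalized counts in control and 1148 ± 185 in treated X-GFP–medium cells, and Tex19.1 had 604 ± 55.6 and 1641 ± 145 (SD, n = 2 each). The 3 lower there, named after their values were seen, were Myc and Pou5f1, both carried by the cassette, and Jak1, which encodes a kinase of LIF and interferon receptors. Reads of Klf4, Pou5f1, Sox2 and Myc may come from the cassette as well as from the endogenous genes.

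A list of 10 genes of the formative and primed states, which follow the naive state in development, was described in the same way. In X-GFP–medium cells 5 were higher and 3 lower with IFNγ, with a median log2 difference of 0.62, beside 33.3% and 29.6% of all genes, so that the share of the list that was lower was close to the background. There were 7 higher and 2 lower among X-GFP–negative cells (backgrounds 31.1% and 30.8%) and 4 and 1 among X-GFP–high cells (backgrounds 18.1% and 20.4%). The median log2 differences of the list in these populations were 1.26 and 0.26, beside 0.55 and 0.28 for the 10 members. At days 2 and 5 limma, DESeq2 and edgeR each called 0, with 4 and 1 at an unadjusted p under 0.05 in limma. DESeq2 called 2 higher and 1 lower in X-GFP–high cells and 4 and 2 in X-GFP–medium cells. In X-GFP–medium cells Dnmt3b, a DNA methyltransferase gene, stood at 1973 ± 158 normalized counts without IFNγ and 6191 ± 910.4 with it, and Pou3f1, a POU factor gene, had 59.1 ± 1.74 and 153 ± 27.0. The mesoderm gene T had 39.3 ± 5.92 and 139 ± 44.5, and Lef1, a mediator of Wnt signaling, had 989 ± 36.5 and 202 ± 24.6 (SD, n = 2 each). All 4 passed the threshold.

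The profiles of the members over the 12 population means were compared by Pearson's r of log2(normalized count + 1), as a description, since the populations share their origin and the NPC and ESC libraries end every profile. Over the 45 pairs, r ran from 0.759 (Nanog and Tbx3) to 0.995 (Tfcp2l1 and Prdm14), with a median of 0.941. Klf5, Tbx3 and Nanog were the least like the other members, with median r of 0.846, 0.884 and 0.885, and Prdm14 was the most like them, with 0.972.

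**Figure D4:**
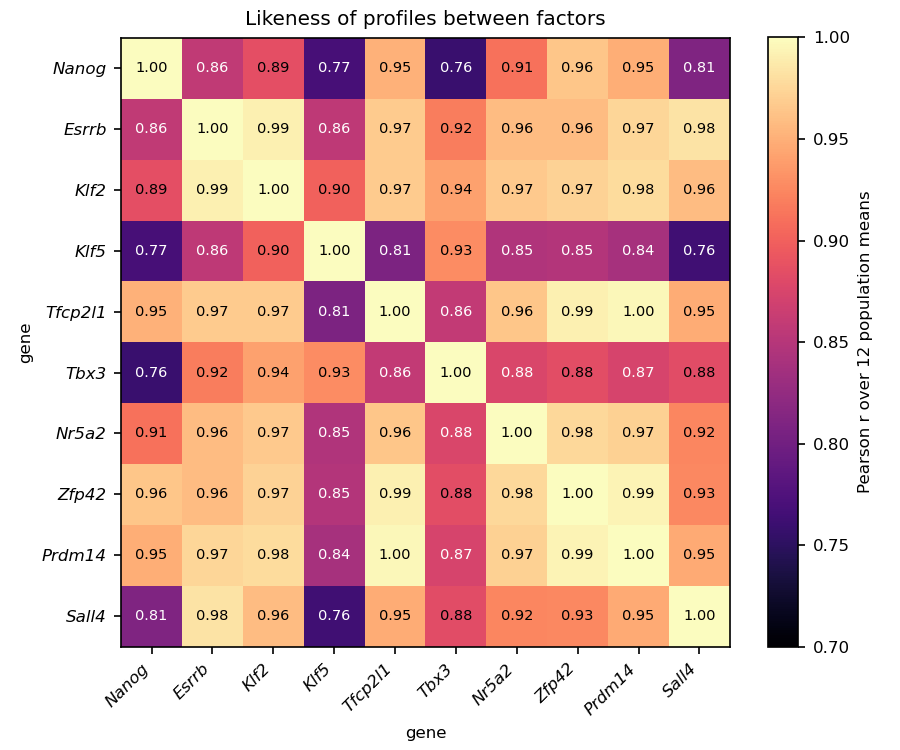
Pearson's r between the profiles of each pair of members over the 12 population means of log2(normalized count + 1), by colour and number. The rows of Nanog, Klf5 and Tbx3 hold the lowest values, down to 0.76, and Esrrb, Klf2, Tfcp2l1, Nr5a2, Zfp42 and Prdm14 share values of 0.958 or more.

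Of the 13843 genes with a mean above 10 and a highest population mean of at least 100, the nearest to Esrrb were Dppa5a (r = 0.997) and Triml2 (r = 0.997), and the nearest to Prdm14 were Fbxo15 (r = 0.996) and its fellow member Tfcp2l1 (r = 0.995). Fbxo15 was also near Tfcp2l1 (r = 0.996), with ENSMUSG00000086967 before it (r = 0.997), and Dppa2 near Sall4 (r = 0.993), with ENSMUSG00000078564 before it (r = 0.996). Nanog, with the profile that rose by day 2, was nearest to Plp2 (r = 0.985) and Gstp2 (r = 0.984), Klf2 to Gm2381 (r = 0.996) and M1ap (r = 0.996), and Klf5, with its late rise, to Atr (r = 0.996) and Thumpd2 (r = 0.990). Tbx3 was nearest to Gm15163 (r = 0.994) and Gm13230 (r = 0.989), Nr5a2 to Alg13 (r = 0.992) and 1700061G19Rik (r = 0.992), and Zfp42 to Slc9b1 (r = 0.996) and Paics (r = 0.995). Plp2, Gm15163 and Alg13 lie on the X chromosome, and none of the 10 members does. The share of the 13843 genes that lie on the X chromosome was not counted.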

How the data were processed

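RNA-seq data of 24 libraries were used, 2 of each of 12 populations, grouped by their labels. They were made with a stranded kit after removal of ribosomal RNA. The deposited signal values are normalized counts. The authors aligned reads with STAR and WASP to mm10 with strain variants masked, counted them per gene with HTSeq 0.6.1 (strand setting not given in the sources used here), and divided them by 1 DESeq2 size factor per library. Whole reads were recovered for 100% of values within 0.001. Some libraries were read longer and trimmed, and which ones is not stated.

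Differences were tested with limma 3.58.1 in R 4.3.3 (lmFit, eBayes with trend) on log2(value + 1), using the libraries of each comparison and genes with a mean above 10, with Benjamini-Hochberg adjustment over all of them and a threshold of 0.1. An exact permutation test of 2 against 2 libraries cannot go below p = 0.333, so none was used. The study's methods call the replicates independent, and neither they nor the labels say whether these were separate cultures or inductions, so p-values measure the spread between these libraries, which may be technical. No 2 replicates agreed within counting noise (chi-square per degree of freedom of 3.35 or more). Alternatives were a pseudocount of 0.1, no filter, 1 fit of all 24 libraries, values rescaled to equal totals, a replicate block, DESeq2 1.42.0 and edgeR 4.0.16 (quasi-likelihood, TMM) on whole reads, and leaving out each library. The tests were checked on simulated data.

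The text names the 10 members, the 2 genes most alike in profile to each, overlapping genes, and the 6 genes of the other lists with the largest change in X-GFP–medium cells. Members and lists were chosen with earlier results of these data known. The neural precursor list is given without 1 of its markers, which is not reported here. The allelic table, which holds X-linked genes, was not used.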

Additional observations from a re-analysis of the deposited data

Results flagged for a closer look

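Results are listed here because the effect of IFNγ differed between X-GFP populations by the interaction test (limma, adjusted p under 0.1). Between X-GFP–negative and X-GFP–medium cells the log2 effect was larger in X-GFP–medium cells by 0.93 for Tbx3, 0.68 for Klf5 and 0.27 for Tfcp2l1. From the X-GFP–medium to the X-GFP–high population it changed by -0.82 for Klf2, -0.63 for Zfp42, -0.63 for Tfcp2l1, -0.62 for Nr5a2, -0.58 for Tbx3, -0.53 for Esrrb and -0.25 for Sall4. The adjusted p-values of the 10 differences ran from 0.00169 to 0.0913. With all 24 libraries in 1 fit, 0 of the 7 differences from the X-GFP–medium to the X-GFP–high population passed.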

How the results depend on the processing

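In the tests, 109 calls of single members passed the threshold, and none of 1239 refits of them changed sign. A pseudocount of 0.1 ended none of these calls, edgeR ended 2, rescaled values 5, DESeq2 6, no filter on low values 8 and the fit of all 24 libraries 36. Leaving out 1 library ended 21 calls in some refit. Of 589 refits of members that had not passed, 44 changed sign, and 44 others passed with the same sign. The 1 that changed sign and passed was Tfcp2l1 from day 5 to X-GFP–negative cells, without day 5 control replicate 1. The causes were not tested. Few reads stood behind some values, at most 4 for Zfp42 and Prdm14 in NPCs, 9 and 10 for Nanog and 13 and 32 for Klf2 there, and 7 and 14 for Prdm14 in control cells at day 2.

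The following counts of members moved by more than 1.5 times. At day 2, IFNγ lowered 1 member in the fit of all 24 libraries, and at day 5 it raised 1 there and 1 with DESeq2. In X-GFP–high cells that fit gave 3 higher. From NPCs to day 2 it gave 1 lower, and from X-GFP–high cells to ESCs 1 lower. From day 5 to X-GFP–negative cells it gave 1 higher, DESeq2 and edgeR 1 higher and 5 lower, and rescaled values 1 higher and 6 lower. For treated X-GFP–negative against control X-GFP–medium cells, it gave 0 higher and 2 lower, DESeq2 0 higher and rescaled values 2 higher. For treated X-GFP–medium against control X-GFP–high cells, it gave 0 higher and 1 lower, and no filter and rescaled values 1 higher each. In the interactions, rescaled values gave 1 lower between X-GFP–negative and X-GFP–medium cells, and from the X-GFP–medium to the X-GFP–high population no filter gave 4 lower and the fit of all 24 libraries 0.

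With 1 library left out, the counts ran from 0 to 1 lower at day 2, 0 to 2 higher at day 5, 4 to 8 higher in X-GFP–high cells, 0 to 1 lower from NPCs to day 2, and 1 to 2 higher and 3 to 6 lower from day 5 to X-GFP–negative cells. They ran from 0 to 1 higher and 0 to 2 higher against the control of the next X-GFP level, from 1 to 4 higher between X-GFP–negative and X-GFP–medium effects, and from 4 to 7 lower between X-GFP–medium and X-GFP–high effects. The member lowered at day 2 was Nanog without IFNγ replicate 1, and those lowered from NPCs were Tbx3 without NPC replicate 1 (-0.97, adjusted p = 0.0029) and Sall4 without NPC replicate 2 (-0.50, adjusted p = 0.00349).

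Of the 44 changes of sign, 5 were those of Klf5 in treated X-GFP–negative against control X-GFP–medium cells (0.053 with rescaled values, and -0.18 to 0.12 with 1 library left out) and of Tbx3 in treated X-GFP–medium against control X-GFP–high cells (-0.017 with rescaled values, and -0.012 to 0.059 with 1 library left out). With the NPC level subtracted, 0 members were at 10% of ESC in treated cells at day 2, and 1 at 50% in treated cells at day 5 and in treated X-GFP–negative cells. By the mean of both libraries, 1 control member was at 10% at day 2 and 2 at 50% at day 5. From single libraries these counts ran from 0 to 1 and from 1 to 2, and from 1 to 2 at 10% in treated cells at day 2. The median r between members was 0.928 with a pseudocount of 0.1, 0.930 with Spearman's rho and 0.961 without ESCs and NPCs.

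The labels number the replicates 1 and 2 in every population without saying that a number marks a shared culture, and the deviations of same-numbered libraries correlated at -0.118 to 0.313 over the comparisons. With the number as a replicate block, 2 members were higher (Tbx3 and Sall4) and 1 lower (Nanog) at day 2, 3 were higher at day 5 (Tfcp2l1, Esrrb and Tbx3) and 6 lower from day 5 to X-GFP–negative cells (Esrrb, Klf2 and Tbx3 in addition). Prdm14 in X-GFP–negative and Tfcp2l1 in X-GFP–high cells also passed as higher, and the effect on Zfp42 was larger in X-GFP–medium than in X-GFP–negative cells. The block ended no call.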
